A study of Mus musculus with 54 samples.

Results

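Naive CD4+ T cells lacking both CD5 and CD6 (Cd5-/-Cd6-/-) were compared with wild-type (WT) cells before any stimulation. The members of this comparison are the 0 h libraries of both genotypes, 3 per genotype, which makes 6 of the 54 libraries of the series and 6 of the 36 libraries of its CD5/CD6 experiment. All mice were on a C57BL/6 background and 8–10 wk old. Cells came from pooled lymph nodes and spleens, were enriched as naive CD4+ T cells with magnetic beads, and gave their RNA directly after purification, with no antibody added. The other libraries of the experiment came from Cd5-/- and Cd6-/- mice and from cells of all genotypes cultured for 4 h or 20 h with plate-bound anti-CD3 and soluble anti-CD28. The Cd5-/-Cd6-/- line was made by injecting guide RNAs against both genes into 1-cell C57BL/6JRj embryos, so that the lesion is carried in the germline by every cell of the mouse and not by T cells alone, whereas the WT mice carry neither lesion. The replicates are described as independent samples, but neither the labels nor the methods say whether each came from another mouse, and the p-values measure the spread among these libraries.

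CD5 and CD6 are surface glycoproteins of T cells that belong to the scavenger receptor cysteine-rich (SRCR) family. Their genes lie next to each other, and both proteins gather signaling enzymes and adaptors close to the T cell antigen receptor (TCR). CD5 is known as a brake on TCR signals in thymocytes and naive T cells, and its surface level follows the strength with which a cell recognizes self-peptides. CD6 binds ALCAM on other cells and has been ascribed activating as well as inhibitory roles. Unstimulated cells therefore show which RNAs differ in the absence of both receptors at rest, before the effects of anti-CD3 and anti-CD28.

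The lesion was made with a pair of guides, shown here because the genes that changed most are those between their predicted cut sites. The PAM is in capitals, and both lines are written 5′ to 3′ on the plus strand of GRCm38 as the genome gives them.
CD5-1: cagcacttcgtgggagtccaTGG
CD6-1: ggagacggttgtgccaccgaTGG
The first lies at chr19:10738826-10738848 in exon 1 of Cd5 and overlaps its coding sequence and start codon. The second lies at chr19:10829917-10829939, where the annotation used here has the 5′ untranslated part of exon 1 of a Cd6 transcript. The predicted cut sites enclose chr19:10738843-10829933, an interval of 91.1 kb. It holds 98.4% of the exon bases of Cd6 (chr19:10789341-10830058), all 3119 exon bases of the noncoding A430093F15Rik (chr19:10740947-10786043), and 3.25% of the exon bases of Cd5 (chr19:10717116-10739002), which include the coding start. The deletion sequenced by the study reaches slightly further on the Cd5 side and takes in all of the Cd5 exon hit by the guide, so that the share of Cd5 given here, which rests on the predicted cuts, is too low.

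The 6 libraries had totals of 22276002 to 39609945 reads counted in genes and 1.90% to 2.54% of reads in mitochondrial genes. For each replicate number the double knockout library was shallower than the WT library. A floor of 3 reads corresponded to 0.0757 to 0.135 CPM (reads scaled to the library total and its TMM factor) and covers counting error only. In total, 32290 genes were tested in all 36 libraries with edgeR's quasi-likelihood test and Benjamini-Hochberg adjustment, and calls required an adjusted p under 0.05 together with a fold change over 2. The typical SE of a log2 fold change was 0.50 for genes with a mean of 10 to 100 reads and 0.16 for genes above 1000 reads. In WT replicate 3, the 18 B cell genes summed to 5284 CPM against 1346 to 2324 CPM in the other 5 libraries, and results that rest on this library are given with and without it. In 2 other libraries at 0 h, replicate 2 of Cd5-/- and replicate 2 of Cd6-/-, the Cd5 and Cd6 counts went against the labels. These 2 libraries enter only the shared estimate of the spread, on which every SE and p of the fit to all 36 libraries rests. All 6 libraries held 3374 to 6924 reads of Xist and 0 to 1 read of each of 4 Y-linked genes.

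The targeted genes were all but absent from the double knockout. Cd5 had 18320, 19999, and 27102 reads in the WT libraries and 13, 4, and 5 reads in the Cd5-/-Cd6-/- libraries. Cd6 had 19882, 21274, and 24732 reads in WT and 13, 9, and 20 reads in the double knockout. Relative to the library totals, 0.0418% of the WT level was left of Cd5 (95% exact interval, 0.0262–0.0633%) and 0.0793% of Cd6 (0.0571–0.107%). These intervals rest on reads pooled over the libraries, cover counting error only, and leave out the spread between libraries. The log2 fold changes were −11.22 ± 0.53 (SE) for Cd5 and −10.34 ± 0.40 for Cd6, with adjusted p = 2.35e-29 and 3.41e-34 by edgeR. Cd5 fell as far as Cd6 although most of its exon bases lie outside the interval. Every library thus carried the Cd5 and Cd6 level of its genotype label.

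The noncoding gene between them was lost too. A430093F15Rik had 439, 691, and 609 reads in WT and 0, 0, and 2 reads in the double knockout, a ratio of 0.143% with a counting interval of 0.0173–0.517% (adjusted p = 9.87e-33, edgeR). Cd5, Cd6, and A430093F15Rik were the only genes called lower at 0 h in this fit. Of the other 74 genes tested within 1 Mb of the interval, none was called with edgeR, with or without the replicate block, and 3 had an unadjusted p under 0.05. Among the 41 of these with a mean of at least 10 reads, the log2 fold change ran from −0.84 (Fen1, a flap endonuclease of DNA replication) to 0.48 (Stx3, a membrane fusion protein), with a median of 0.02. The nearest expressed neighbors were Vps37c, at −0.13 ± 0.17, and Slc15a3, at −0.21 ± 0.43 (SE). The plot of fold changes by distance shows these 3 genes far below all others of the region.

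**Figure D1:**
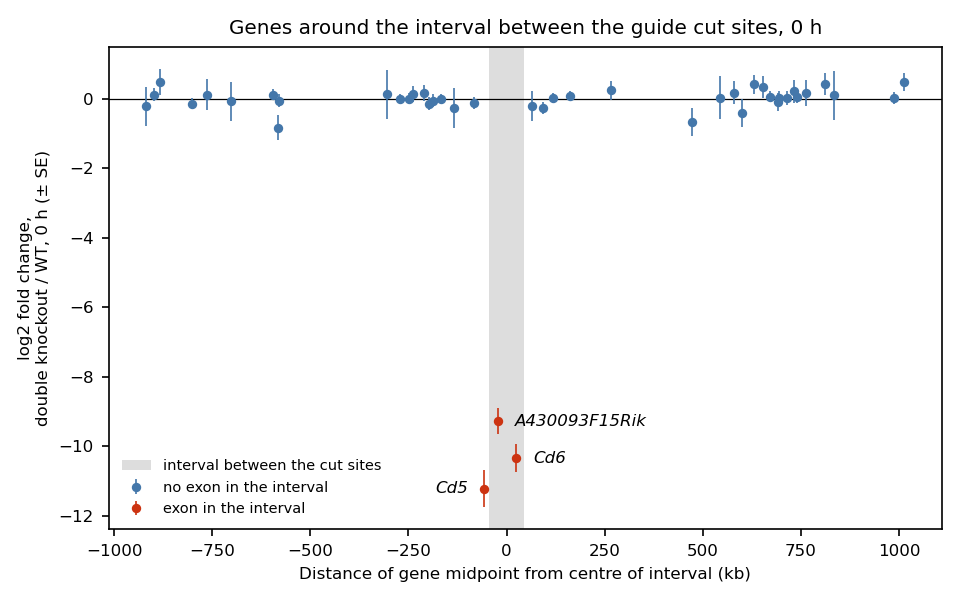
Fitted log2 fold change (± SE) of Cd5-/-Cd6-/- over WT cells at 0 h against the distance of each gene's midpoint from the centre of the interval, in kb, for genes within 1 Mb with a mean of at least 10 reads. Cd5, Cd6, and A430093F15Rik lie between −11.22 and −9.27, and the 41 others lie between −0.84 and 0.48.

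Outside the locus the resting transcriptomes were close. In all, 8 genes were called of 32290 (0.0248%), 5 of them higher (0.0155%) and 3 lower, while 594 genes had an unadjusted p under 0.05. Of 13824 genes with a mean of at least 10 reads, 98.8% had a log2 fold change within ±1 and 92.8% within ±0.5. With the replicate number as a block, 18 genes were called (0.0557%), 13 higher and 5 lower, and these included all 8. Without the 2 single knockout libraries whose counts went against their labels, and with no block, 20 of 32036 genes were called. Of these, 17 were higher and 3 lower, and they included all 8. The count of 8 thus depends on the spread to which those 2 libraries contribute. The 5 genes that rose in the fit without the block were Trdc, Tcrg-C2, Tcrg-C4, Cd163l1, and Map2.

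Constant segments of the γδ TCR were higher in the double knockout. The TCR of γδ T cells is built from a δ chain, whose constant part is encoded by Trdc, and a γ chain, whose constant part comes from 1 of several Tcrg-C genes, whereas CD4+ T cells use the αβ form. Trdc (chr14:54142851-54148868) was at 26.2, 23.8, and 23.4 CPM in WT and at 56.6, 81.2, and 62.2 CPM in the double knockout. The groups did not overlap, and the log2 fold change was 1.45 ± 0.24 (adjusted p = 0.000299, edgeR). Tcrg-C4 was at 4.66, 4.67, and 4.51 CPM in WT and at 9.69, 17.5, and 15.8 CPM in the double knockout (log2 fold change 1.64 ± 0.31, adjusted p = 0.011, edgeR). Tcrg-C2 rose from 4.32, 4.46, and 5.09 CPM to 9.47, 17.7, and 13.6 CPM (1.55 ± 0.32, adjusted p = 0.0245). All 3 genes had their lowest double knockout value in replicate 1, and that value still stood above every WT library.

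Tcrg-C1, the constant segment of another γ cluster, did not pass the threshold in the fit to all 36 libraries without the block. Its level was 2.73, 2.20, and 2.55 CPM in WT and 6.90, 9.12, and 9.62 CPM in the double knockout, with a log2 fold change of 1.78 ± 0.39 (adjusted p = 0.0542, edgeR), and it was called with the replicate block (adjusted p = 0.0078). Without the 2 libraries whose counts went against their labels, it was called with no block (adjusted p = 0.00204, edgeR). The variable segment Trgv2 showed 1.13, 1.42, and 1.21 CPM in WT against 2.83, 5.25, and 3.88 CPM, with adjusted p = 0.25. These libraries stayed apart in the same way as those of the constant segments. Some of the γ constant segments are close copies of each other, so that reads could have been assigned to more than 1 of these. Trdc lies within the Tcra locus. Per length, Trdc reached 6.33 RPKM (CPM per kilobase of exons) in WT and 17.2 RPKM in the double knockout on average, against 1315 and 1379 RPKM of Trac, the αβ constant segment. Relative to Cd3e, a TCR subunit shared by both kinds of cell, the Trdc level per length was 4.46% to 5.90% in WT and 12.4% to 19.2% in the double knockout.

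Of 21 genes in a list of γδ T cell markers, 20 were tested, 3 were called higher, 4 with the replicate block, and none was called lower. Of all genes tested, 0.0155% were called higher, and 0.0557% were called in either direction with the block. The list was drawn up with earlier results of these data known. The median log2 fold change was 0.93 over the 17 with a mean of at least 10 reads, beside −0.01 over all 13824 such genes. All 3 double knockout libraries lay above all 3 WT libraries for 8 of the 17, against 2.08% of all genes. The markers outside these 8 overlapped between the groups. Il17a had at most 0.151 CPM in any library, Sox13 differed by 0.20 ± 0.55, and Blk, a kinase that B cells also express, was at 32.8 CPM in WT replicate 3 and 6.05 to 13.1 CPM elsewhere. Summed over the list, the level was 79.3, 70.5, and 106 CPM in WT and 123, 190.5, and 152 CPM in the double knockout, a ratio of 1.82, and of 2.07 without WT replicate 3. The largest member of this sum was Trdc, and the sum also holds the Tcrg-C segments and Trgv2. It thus largely repeats the segments described above and does not show a rise of the other markers. In bulk RNA, more cells of a type and more RNA per cell cannot be told apart.

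The SRCR family, to which CD5 and CD6 belong, held the largest rise among the 5 genes called higher. Cd163l1 (chr7:140218267-140231145), a receptor related to CD163 that is known from γδ T cells, was at 0.499, 0.512, and 0.679 CPM in WT and at 2.72, 3.75, and 4.18 CPM in the double knockout. Its log2 fold change was 2.64 ± 0.53 (adjusted p = 0.0227, edgeR). The adjoining SRCR gene 5830411N06Rik (chr7:140247284-140300736) was at 1.06, 1.54, and 2.18 CPM in WT and 4.26, 8.08, and 6.21 CPM in the double knockout. For both genes every double knockout library exceeded every WT library, as for 2.08% of all genes with a mean of at least 10 reads. The log2 fold change of 5830411N06Rik was 1.94 ± 0.44 and missed the threshold without the block (adjusted p = 0.0717) and passed it with the block (adjusted p = 0.00345, edgeR). Without the 2 libraries whose counts went against their labels, it passed with no block (adjusted p = 0.00138, edgeR). Of the 12 SRCR genes tested beside Cd5 and Cd6, 1 was called, 2 with the replicate block, against 0.0248% and 0.0557% of all genes tested. The median over the 9 with at least 10 reads was −0.08. Cd163, Cd5l, Marco, and Lgals3bp, which macrophages express, lay between −0.34 and 0.46. The ligand genes Alcam, Cdcp1, and Cd72 were 0.06, 0.43, and −0.07, each with adjusted p = 1.

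Map2, which encodes a microtubule-associated protein best known from neurons, was at 2.03, 1.93, and 0.921 CPM in WT and at 4.98, 4.56, and 5.68 CPM in the double knockout (log2 fold change 1.65 ± 0.35, adjusted p = 0.0294, edgeR). The lowest WT value was that of replicate 3, and the call was lost without that library. Ppic, which encodes the peptidyl-prolyl isomerase cyclophilin C, was at 7.71, 8.97, and 7.64 CPM in WT and 20.1, 17.0, and 11.4 CPM in the double knockout. Its log2 fold change of 0.99 ± 0.20 passed the adjusted p threshold (0.0245) and stood just under the fold change of 2. The groups of Ppic did not overlap, and in both genotypes replicate 3 was the lowest.

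**Figure D2:**
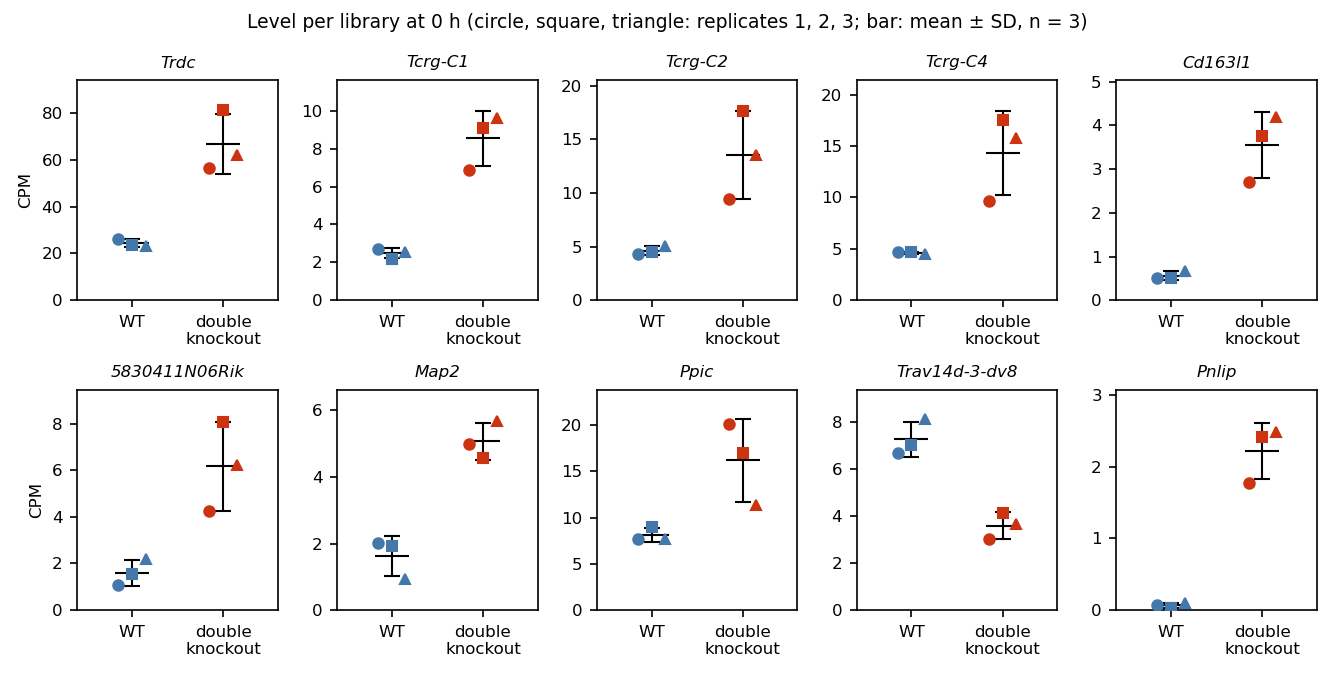
CPM of 10 genes in each 0 h library of WT (blue) and Cd5-/-Cd6-/- (red) cells on linear axes from 0, with a bar for the mean and its SD (n = 3) and a symbol for each replicate number. In all 10 panels the 3 libraries of one genotype lie apart from the 3 of the other, with Trdc at 23.4 to 26.2 CPM in WT and 56.6 to 81.2 CPM in the double knockout. The genes were drawn from those that passed a threshold in some fit of these same libraries, so that the choice favoured this separation. Of all genes with a mean of at least 10 reads, 2.08% lay higher and 1.97% lower without overlap.

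Stability of these calls differed between genes. Trdc kept its call in 19 of 21 other settings, Tcrg-C4 in 17, Cd163l1 in 15, and Map2 and Tcrg-C2 in 13 each, and no setting turned their direction. Without double knockout replicate 2, 4 genes were called, and without double knockout replicate 3, 5 genes were called. Both of these fits lost Map2, Cd163l1, Tcrg-C2, and Tcrg-C4. Leaving out WT replicate 3 or double knockout replicate 1 gave 19 genes each. On the smaller set of 16143 genes kept by edgeR's filterByExpr, 3 genes were called, those of the locus, and Trdc was not among them. The fold changes moved less than the calls: over the 21 settings, Trdc lay at 1.25 or above, Cd163l1 between 2.49 and 2.78, and Map2 between 1.25 and 1.86.

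No gene of the αβ TCR machinery passed the test. None of 20 genes of the TCR complex and its proximal enzymes was called, with an unadjusted p under 0.05 for 0 of them, and their log2 fold changes ran from −0.15 (Rhoh) to 0.13 (Trbc1) with a median of 0.01. Cd3e was at 469, 448, and 553 CPM in WT and 466, 446, and 530 CPM in the double knockout. Cd4 was at 1236, 1105, and 1306 CPM in WT and 1113, 1023, and 1219 CPM in the double knockout. Lck, the kinase that starts TCR signaling, differed by 0.06 ± 0.14 and Zap70, the kinase it activates, by 0.08 ± 0.14. Both genotypes thus carried the defining RNAs of CD4+ T cells at overlapping levels.

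Among 20 genes of proteins that bind CD5 or CD6, none was called. Beside 594 of all 32290 genes tested, 1 of these 20 had an unadjusted p under 0.05. This was Ptpn6, the phosphatase SHP-1, at 227, 300, and 301 CPM in WT and 367, 360, and 310 CPM in the double knockout (log2 fold change 0.32 ± 0.15, adjusted p = 1, edgeR). The groups lay close to each other without overlapping. Of the 20 genes, 1 lay higher without overlap, beside 2.08% of all genes with a mean of at least 10 reads, so that Ptpn6 does not stand out from the background. Cblb and Cbl, ubiquitin ligases that restrain T cells, were −0.02 ± 0.15 and −0.10 ± 0.24. Ubash3a, Lcp2, and Vav1, which regulate or carry TCR signals, were 0.00, 0.03, and −0.01.

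A list of genes taken as TCR-induced was examined because CD5 is known to temper TCR signals at rest. It also holds genes not known as induced by the TCR, such as Ly6c1 and Ly6c2, so that its range and median have no single meaning. None of 24 was called, and 8 had an unadjusted p under 0.05, beside 594 of all 32290 genes tested (edgeR). The median log2 fold change was 0.16, from −0.38 (Ly6c1) to 0.77 (Ly6c2), beside a median of −0.01 over all genes with a mean of at least 10 reads. Izumo1r, which encodes folate receptor 4, was at 152, 151, and 182 CPM in WT and 197, 201, and 248 CPM in the double knockout (0.41 ± 0.17, adjusted p = 1). Icos, a costimulatory receptor, was at 3.23, 3.25, and 3.03 CPM in WT and 3.70, 4.41, and 4.72 CPM in the double knockout (0.43 ± 0.20, adjusted p = 1). These were the 2 genes of the list whose groups did not overlap, beside 2.08% of all genes with a mean of at least 10 reads that lay higher without overlap. Pdcd1 and Lag3, inhibitory receptors, differed by 0.71 ± 0.25 and 0.69 ± 0.24 with overlapping libraries. The early factors Nr4a1, Egr1, and Myc differed by 0.32 ± 0.24, 0.02 ± 0.16, and 0.05 ± 0.16. Nr4a1 followed the replicate number, with 232, 202, and 131 CPM in WT and 391, 225, and 87.7 CPM in the double knockout.

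Naive and memory genes gave no called member. The 16 naive genes lay between −0.18 (Bach2) and 0.06 (Dapl1), with a median of −0.08, and none had an unadjusted p under 0.05. Summed over the naive genes, the level was 12505, 10486, and 11883 CPM in WT and 11695, 10383, and 11175 CPM in the double knockout, lower in each of the 3 pairs of same-numbered libraries, with overlapping groups (exact permutation p = 0.4). Of 25 effector and memory genes, 6 had an unadjusted p under 0.05, beside 594 of all 32290 genes tested (edgeR). Their median was 0.35 over the 24 with at least 10 reads, beside −0.01 over all 13824 genes with as many reads. Their sum was 907, 936, and 1066 CPM in WT and 924, 1226, and 1197 CPM in the double knockout, higher in each of the 3 pairs, also with overlapping groups (exact permutation p = 0.3). Cxcr3, a chemokine receptor of effector cells, was at 3.52, 3.82, and 11.6 CPM in WT and 6.03, 16.9, and 14.4 CPM in the double knockout (0.97 ± 0.32, adjusted p = 1). Here WT replicate 3 overlapped the double knockout, and Cxcr3, Cxcr6, Pdcd1, and Ly6c2 were called when it was left out. Of 10 regulatory T cell genes, none was called. Foxp3, the factor that defines these cells, differed by 0.12 ± 0.31, and Ikzf2 by 0.71 ± 0.25 (adjusted p = 1).

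The remaining lists also held no called gene. Medians were −0.03 for 18 migration genes, 0.27 for 16 cell division genes, −0.20 for 24 interferon-induced genes, and −0.10 for 14 early response and heat shock genes with at least 10 reads. Ccr4, a chemokine receptor, was at 2.19, 2.86, and 3.54 CPM in WT and 3.43, 5.36, and 7.50 CPM in the double knockout (0.92 ± 0.29, adjusted p = 1). Early response genes followed the replicate number in both genotypes. Fos was at 991, 644, and 284 CPM in WT and 855, 647, and 170 CPM in the double knockout.

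**Figure D3:**
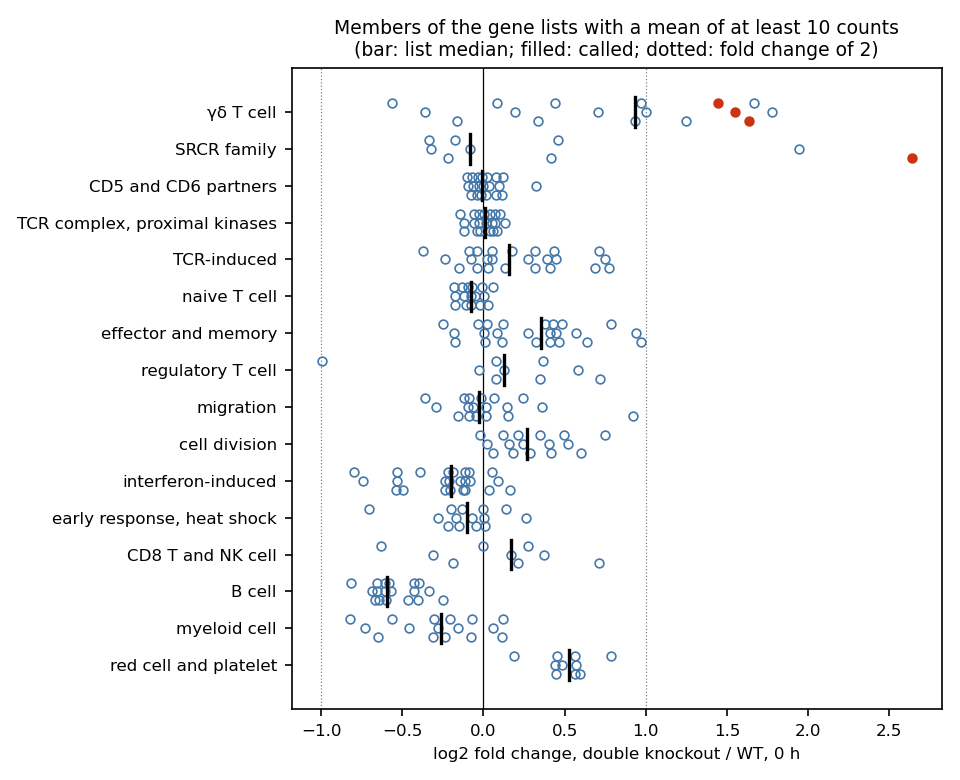
Log2 fold change at 0 h (x axis) of each member with a mean of at least 10 reads in 16 gene lists (y axis), with a vertical bar for the list's median and filled points for called genes. The γδ list has its median at 0.93 and 3 called members, the SRCR list 1, and the other lists none, with all 18 B cell genes left of 0 while WT replicate 3 is included.

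Markers of other cells were summed for each library to describe what the purified cells held. B cell genes summed to 1774, 1346, and 5284 CPM in WT and 1804, 2324, and 2036 CPM in the double knockout, a ratio of 0.734, and of 1.32 without WT replicate 3. Red cell and platelet genes summed to 2263, 1080, and 2474 CPM in WT and 1185, 4545, and 2853 CPM in the double knockout (exact two-sided permutation p = 0.4, where 3 against 3 libraries allow no p under 0.1). Myeloid genes gave a ratio of 0.911 and CD8 T and NK cell genes a ratio of 0.965, and these ratios were 1.10 and 1.19 without WT replicate 3. The red cell sum was highest in double knockout replicate 2, the library with the highest Trdc. No gene of these 4 lists was at 0 in all 6 libraries, and their part in the differences above was not tested.

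RNAs of pancreatic enzymes were present at low levels in the double knockout. This list of 15 genes was chosen after these genes appeared in the fit with the replicate block. Pnlip, the pancreatic lipase, was at 0.0665, 0.0301, and 0.0970 CPM in WT and 1.77, 2.41, and 2.48 CPM in the double knockout. Ctrb1, a chymotrypsinogen, was at 0.333, 0.0301, and 0.339 CPM in WT and 3.13, 4.10, and 4.00 CPM in the double knockout. Without the block 0 of the 14 tested genes was called with edgeR (smallest adjusted p = 0.0542, for Pnlip), with 13 at an unadjusted p under 0.05, and with the replicate block Pnlip, Ctrb1, Cela2a, and Cpb1 were called higher. These 4 calls depended on the fit. EdgeR on the compared groups alone made them without the block (adjusted p = 4.03e-11 for Pnlip). So did edgeR with no block when the 2 libraries whose counts went against their labels were left out (adjusted p = 3.31e-05 for Pnlip). DESeq2 made none of them in either form (adjusted p = 1 for all 4), nor did edgeR with filterByExpr and the block (0.206 for Pnlip). The sum over the list was 1.66, 1.17, and 1.65 CPM in WT and 14.1, 19.5, and 16.7 CPM in the double knockout, a ratio of 11.2, which is given without a test since the list was chosen for its rise in these libraries. The highest sum at 0 h, 66.1 CPM, was in the library labelled Cd6-/- replicate 3. In the 5 other libraries labelled as single knockouts the sum was 0.243 to 2.60 CPM.

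**Figure D4:**
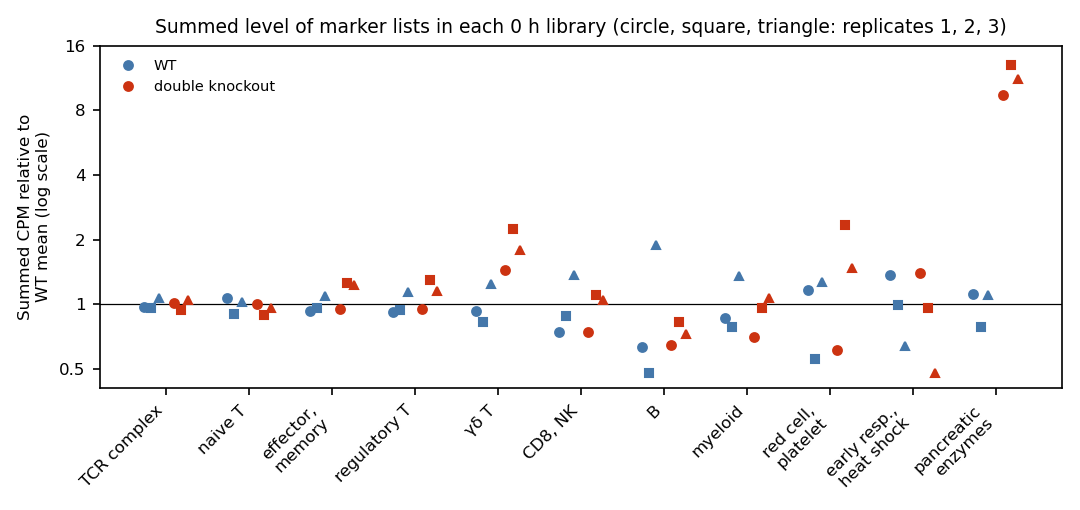
Summed CPM of marker lists in each 0 h library, divided by the mean of the 3 WT libraries and drawn on a log scale, with WT in blue, Cd5-/-Cd6-/- in red, and a symbol for each replicate number. The γδ and pancreatic enzyme sums of the double knockout lie above all WT libraries (ratios 1.82 and 11.2), and the B cell sum of WT replicate 3 stands alone. The γδ sum includes the TCR segments already named, with Trdc as its largest member, and the pancreatic list was chosen for its rise.

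The genes called at 0 h were then followed in the stimulated libraries of the same genotypes, which share no library with the comparison at rest. Whether same-numbered libraries of different times came from the same cells is not stated. At 4 h, 14 genes were called in the double knockout (0.0434%), and these included 7 of the 8. At 20 h, 14 genes were called (0.0434%), and these included 6 of the 8. Cd5, Cd6, and A430093F15Rik were among them at both times, which the germline deletion fixed in advance. Beside these, Trdc, Tcrg-C2, and Tcrg-C4 recurred at both times and Cd163l1 at 4 h. With the replicate block, 25 and 23 genes were called, which included 10 and 7 of the 18 called at 0 h with the block. Those 18 also hold the genes of the deletion. Trdc was at 20.8, 19.5, and 18.7 CPM in WT and 54.6, 74.6, and 52.7 CPM in the double knockout at 4 h (log2 fold change 1.62 ± 0.24, adjusted p = 1.24e-05). At 20 h it had dropped in both, to 3.69–4.85 CPM and 9.04–14.3 CPM (1.37 ± 0.25, adjusted p = 0.00252, edgeR). The double knockout stayed above WT in every library at both times.

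The other γδ segments and the SRCR genes went the same way at 4 h. Tcrg-C2 differed by 2.60 ± 0.37 at 4 h and 2.07 ± 0.39 at 20 h, and Tcrg-C4 by 2.32 ± 0.35 and 2.01 ± 0.37, all called. Cd163l1 differed by 3.75 ± 0.63 at 4 h (adjusted p = 0.000272), from 0.0355–0.233 CPM in WT to 1.00–2.18 CPM in the double knockout. At 20 h it was at or under 0.0761 CPM in all 6 libraries, close to the floor, and the fold change of 1.10 ± 1.22 was not called. Map2 was at 4.86 to 9.63 CPM in WT and 9.41 to 18.9 CPM in the double knockout at 4 h, which was not called (1.01 ± 0.32, adjusted p = 0.794). Ppic was called at 4 h (1.06 ± 0.21, adjusted p = 0.00579) and not at 20 h (0.50 ± 0.20, adjusted p = 1, edgeR). The change of the genotype difference between 0 h and 4 h was called for 0 genes (edgeR, 671 at an unadjusted p under 0.05, DESeq2 0) and that between 0 h and 20 h for 0 genes (559, DESeq2 0), with 1 gene at 20 h under the replicate block.

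The single knockouts at 4 h and 20 h show the same genes against the same WT libraries as the double knockout of each time, so that the values are only set side by side. In Cd5-/- cells, 24 genes were called at 4 h (0.0743%) and 6 at 20 h (0.0186%). At 4 h, 5 of the 8 were among them, namely the targeted Cd5, Trdc, Tcrg-C2, Tcrg-C4, and Cd163l1. At 20 h, 2 of the 8 were, namely Cd5 and Tcrg-C2. In Cd6-/- cells, 1 gene was called at 4 h (0.0031%) and 6 at 20 h (0.0186%), and the only one of the 8 among them was Cd6 at both times. The targeted RNAs fell less in the single knockouts. Cd5 differed by −3.88 ± 0.35 at 4 h and −6.49 ± 0.40 at 20 h in Cd5-/- cells, against −11.82 and −11.16 in the double knockout. Cd6 differed by −1.80 ± 0.26 and −1.83 ± 0.26 in Cd6-/- cells, against −10.68 and −11.04 in the double knockout. With the replicate block, 79 and 9 genes were called in Cd5-/- cells at 4 h and 20 h, and 18 and 8 in Cd6-/- cells. Trdc differed by 1.45 ± 0.24 in Cd5-/- cells at 4 h (adjusted p = 0.000409) and by −0.08 ± 0.23 in Cd6-/- cells (adjusted p = 1). Its level at 4 h was 49.6 to 56.0 CPM in Cd5-/- and 13.8 to 24.6 CPM in Cd6-/- libraries, the latter spanning the WT range of 18.7 to 20.8 CPM. Tcrg-C1 in Cd6-/- cells differed by 1.96 ± 0.50 at 4 h (adjusted p = 0.383) and −0.27 ± 0.61 at 20 h. Cd163l1 differed by 2.91 ± 0.64 in Cd5-/- cells (adjusted p = 0.0295) and by 2.12 ± 0.65 in Cd6-/- cells at 4 h (adjusted p = 0.81).

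At 0 h the single knockout libraries are given as levels only. Trdc was at 62.4, 22.9, and 69.5 CPM in the libraries labelled Cd5-/- replicates 1, 2, and 3 and at 21.5, 59.1, and 36.2 CPM in those labelled Cd6-/-. The 2 libraries numbered 2 are those whose Cd5 and Cd6 counts went against the labels. Cd163l1 was at 1.78, 1.04, and 3.60 CPM in those labelled Cd5-/- and 0.589, 3.52, and 1.99 CPM in those labelled Cd6-/-.

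**Figure D5:**
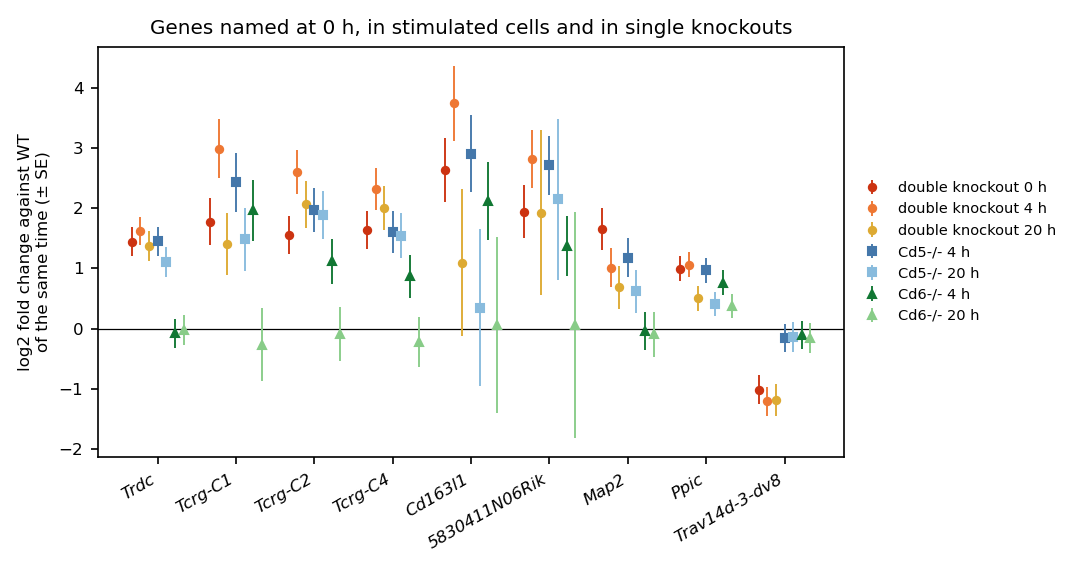
Log2 fold change (± SE) against the WT cells of the same time for 9 genes in Cd5-/-Cd6-/- cells at 0, 4, and 20 h (circles), Cd5-/- cells at 4 and 20 h (squares), and Cd6-/- cells at 4 and 20 h (triangles). Trdc lies between 1.10 and 1.62 in the 5 comparisons that lack CD5 and at −0.08 and −0.02 in Cd6-/- cells, and Trav14d-3-dv8 lies below −1 only in the double knockout.

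Among the variable segments of the TCR α chain, 2 were lower with the replicate block or with DESeq2, and not with edgeR without the block. Of 86 Trav genes tested, none was called without the block (edgeR, 10 at an unadjusted p under 0.05, beside 594 of all 32290 genes tested). With the block, Trav14d-3-dv8 and Trav7n-4 were called lower. DESeq2 called both without the block (adjusted p = 0.000225 and 0.000483), together with Trav6n-6, at 2.19, 1.51, and 1.72 CPM in WT and 0.603, 0.345, and 0.836 CPM in the double knockout (edgeR, adjusted p = 0.229, with the block 0.0614). Trav14d-3-dv8 (chr14:53078452-53079045) was at 6.68, 7.02, and 8.12 CPM in WT and at 3.02, 4.14, and 3.64 CPM in the double knockout, a log2 fold change of −1.02 ± 0.24 (adjusted p = 0.139, with the block 0.0205). It lay between 5.68 and 7.75 CPM in all 6 libraries labelled as single knockouts. Trav7n-4 (chr14:53091346-53091875), its neighbor, was at 1.73, 1.66, and 2.52 CPM in WT and 0.566, 0.613, and 0.807 CPM in the double knockout (−1.56 ± 0.38, adjusted p = 0.179, with the block 0.0357). Neither segment overlapped between the groups, where 1.97% of all genes with a mean of at least 10 reads lay lower in all 3 double knockout libraries. Such separation occurred both ways among the α segments, with 9 of 59 Trav genes lower and 8 higher, while of 21 Trbv genes 5 lay lower and 0 higher. At 4 h and 20 h, Trav14d-3-dv8 was called lower without the block, by −1.21 ± 0.24 (adjusted p = 0.00839) and −1.19 ± 0.26 (adjusted p = 0.0464, edgeR). In the single knockouts it stood between −0.16 and −0.10, each with adjusted p = 1. Many α segments are near-identical copies, so that reads could have been split between them. Of 32 Trbv and 60 Traj segments tested, none was called with edgeR in either fit, with 2 and 4 at an unadjusted p under 0.05.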

How the data were processed

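Naive CD4+ T cells were profiled by stranded mRNA sequencing with single reads. The authors trimmed the reads (DimerRemover), aligned them to GRCm38 (STAR), and counted them for each gene (featureCounts), and the deposited values are raw counts, neither normalized nor pooled. The submitters' processing notes list bcl2fastq 2.17.1.14. Annotation release, strand setting, and the treatment of reads shared by genes are not given in the sources used here. Samples were assigned from their titles. Names came from GENCODE vM21 (55144 of 55385 identifiers matched). The guide letters came from the study's supplement and were matched to the transcripts on GRCm38.

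The software was R 4.3.3, edgeR 4.0.16, DESeq2 1.42.0, and limma 3.58.1. As in the study's methods, only genes without any read were dropped. The study tested pairs of groups with DESeq2, whereas here edgeR with TMM factors and 1 coefficient per genotype and time, with 1 shared spread over 36 samples, was the main fit and DESeq2 an alternative. Summed lists were compared by exact permutation. Genes named were those of 19 lists (285 genes), those of the interval, and up to 15 called genes per direction that averaged 20 or more counts and kept 1 sign in each replicate number. The lists of pancreatic enzymes and further γδ segments, Ppic, Trav14d-3-dv8, Trav7n-4, Trav6n-6, Kcnf1, Fam84a, Slc15a3, and Tmem132a were chosen after their values were seen. Members and lists were chosen with earlier results of these data known. The replicate numbers in the labels were taken as pairs, which the labels do not state. Deviations of same-numbered libraries correlated at 0.27, 0.15, and 0.39 over 13738 genes. WT replicate 2, however, correlated more with double knockout replicate 1 (0.25) than with double knockout replicate 2 (0.15). The pairing was thus not clearly borne out for replicate 2. Replicates of a genotype differed far beyond counting noise (chi-square per degree of freedom of 23.8 to 79.1). The alternatives were the replicate block, the compared groups alone, RLE factors, library totals, filterByExpr, DESeq2, adjusted p alone, leaving out libraries, and block versions of these. The block with DESeq2, filterByExpr, or adjusted p alone, and list sums without WT replicate 3, were chosen after seeing the data. The edgeR fits were tested on simulated counts with the same spread for every gene, no replicate effect, and changes only in well-covered genes. That test cannot tell how the fits treat low genes or whether the block is apt. Values of some single list members are not reported here.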

Additional observations from a re-analysis of the deposited data

How the results depend on the processing

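The 8 genes called at 0 h became 18 with the replicate block, 26 with the compared groups fitted alone, 39 alone with the block, 3 with filterByExpr, 20 without replicates 2 of the unstimulated single knockouts, 14 with DESeq2 and the block, and 20 with adjusted p alone and the block. RLE factors gave 8, library totals 6, DESeq2 11, adjusted p alone 9, and filterByExpr with the block 7. Leaving out libraries gave 4 to 51, the highest without replicate 1 of WT and double knockout cells at every time. The 6 called genes of the lists became 10 alone with the block, 2 with filterByExpr, 3 with filterByExpr and the block, and 3 to 21 without single replicates. At 4 h the block gave 25 and omissions 10 to 108. At 20 h the block gave 23, filterByExpr 6, and omissions 7 to 52. The change of the genotype difference gave 0 to 35 genes at 4 h and 0 to 22 at 20 h under omissions, and 1 at 20 h with the block. Without WT replicate 3, summed log2 ratios turned from −0.05 to 0.25 (CD8 T and NK), −0.45 to 0.40 (B cell), −0.13 to 0.14 (myeloid), 0.04 to −0.025 (TCR-induced), −0.12 to 0.040 (interferon-induced), and −0.10 to 0.11 (SRCR). The cause of these shifts was not tested. None of the 18 genes called with or without the block turned direction, and other list members were not followed one by one. The SE limits what 3 libraries can resolve: for low genes such as Cd163l1 the call, though not the fold change (2.49 to 2.78), depended on single libraries, while Cd5 and Cd6 were called in all settings.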

Other observations

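Further γδ TCR segments, in a list chosen after the values were seen, gave 0 of 12 called at 0 h, with 3 at an unadjusted p under 0.05 (edgeR) and the smallest adjusted p of 0.262 for Tcrg-V4. Tcrg-V4, a variable segment of the γ chain, was at 1.06, 0.933, and 0.703 CPM in WT and 2.87, 3.45, and 3.61 CPM in the double knockout. Trdj1, a joining segment of the δ chain, was at 1.23, 1.26, and 1.31 CPM in WT and 2.00, 4.64, and 3.47 CPM in the double knockout. Both were apart between the genotypes, while Tcrg-V5 and Tcrg-V6 were under 0.36 CPM in every library.

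Kcnf1, which encodes a potassium channel subunit, was at 0.732, 0.903, and 0.558 CPM in WT and 2.79, 1.30, and 2.06 CPM in the double knockout, with adjusted p = 0.25 without the replicate block and 0.04 with it (edgeR). Fam84a was at 0.0998, 0, and 0.145 CPM in WT and 0.453, 0.421, and 0.687 CPM in the double knockout, with adjusted p = 0.106 and 0.048. At 20 h Slc15a3 and Tmem132a, genes beyond the Cd6 end of the interval, were called lower in the double knockout, by −4.65 ± 0.74 and −4.00 ± 0.68 (SE). At 0 h Slc15a3 was at 1.86, 2.50, and 4.73 CPM in WT and 1.73, 3.68, and 2.51 CPM in the double knockout, and Tmem132a was at or under 0.345 CPM.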
